A study of Homo sapiens with 40 samples.

Results

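The genes described here are 8 mucins of glandular epithelium, MUC1, MUC2, MUC4, MUC5AC, MUC5B, MUC13, MUC16 and MUC20. They were chosen by name from a table of 44584 gene names, and each was read from the row whose name equals the gene symbol. The list was put together with some results of these data known, namely the MUC2 values at 12 h and the MUC1 values at 12 h in BT474, so those values are given as a description without a test.

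RNA sequencing was done on 40 libraries from BT474 and BT474R, 2 libraries for each of 20 groups. BT474 is a HER2-overexpressing breast ductal carcinoma cell line that is sensitive to trastuzumab, an antibody against HER2. BT474R is clone 5 of BT474, obtained by growth in 10 ug/mL trastuzumab, so the resistant state is represented by 1 clone. Cells of both lines were serum starved and collected at once (T0) or, in starvation medium, 1 h, 12 h or 24 h later, with 50 ng/mL EGF, 10 ng/mL HRG (heregulin) or water as the vehicle. EGF binds EGFR, and HRG binds HER3 and HER4, which pair with HER2. No group held trastuzumab during the treatment, and every group had been starved.

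Mucins are long glycoproteins whose serine- and threonine-rich repeats carry dense chains of O-linked sugars. MUC2, MUC5AC and MUC5B are secreted and form gels: MUC2 is the main mucin of intestinal goblet cells, MUC5AC that of the gastric surface and of airway goblet cells, and MUC5B that of airway submucosal glands. MUC1, MUC4, MUC13, MUC16 and MUC20 are anchored in the membrane. MUC1 lines the apical surface of normal breast ducts and is known for its overexpression in breast carcinoma, MUC4 can bind HER2, MUC16 carries the CA125 antigen, and MUC20 can bind the receptor MET.

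Each treatment was done 2 times per the study's methods, which do not say whether the cultures were grown independently, so the p-values measure the spread between these libraries, which may be technical. The library totals were 19200632 to 29098915 counts in BT474 and 16794594 to 33387936 in BT474R. Levels are given as CPM, the counts of a gene per 1000000 counts of its library, scaled by TMM (edgeR's trimmed mean of M values) over the 40 libraries. A group in which both libraries had 3 counts or fewer was taken as at the floor, which corresponds to at most 0.156 CPM in BT474 and 0.179 CPM in BT474R. All 10 luminal breast markers, among them KRT8, KRT18, EPCAM, GATA3 and ERBB2, had a mean over 1 CPM in both lines. The summed level of 6 leukocyte markers was at most 5.53 CPM in any library, with 1 of them at 0 in every library of each line. The 6 fibroblast markers summed to 75.2 to 105 CPM in BT474 and 170 to 295 CPM in BT474R, in each line from 1 gene over 1 CPM, and 2 of the 6 were at 0 in all BT474R libraries. Its part in the differences between the lines was not tested. The 5 endothelial markers summed to 13.1 to 25.3 CPM in BT474 and 9.65 to 22.7 CPM in BT474R, with 2 of the 5 over 1 CPM in each line and none at 0 in all libraries. In bulk RNA, fewer cells that express a gene and less RNA per cell cannot be told apart.

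MUC2, MUC5AC and MUC5B lie in this order along chromosome 11. MUC20, MUC4 and MUC13 are on chromosome 3, while MUC1 is on chromosome 1 and MUC16 on chromosome 19. The RefSeq promoter table (GRCh38.p14) held 5 of the 8 genes. It had no entry for MUC5AC, MUC5B and MUC20. The 250 bases before the start of MUC2 and of MUC1 are shown because MUC2 is a secreted mucin called higher after ligand and MUC1 a membrane mucin called lower after ligand in BT474 at 24 h. MUC2 is at chr11:1074624-1074873 on the plus strand and MUC1 at chr1:155192916-155193165 on the minus strand, both printed 5′ to 3′ in the direction of the gene.
MUC2: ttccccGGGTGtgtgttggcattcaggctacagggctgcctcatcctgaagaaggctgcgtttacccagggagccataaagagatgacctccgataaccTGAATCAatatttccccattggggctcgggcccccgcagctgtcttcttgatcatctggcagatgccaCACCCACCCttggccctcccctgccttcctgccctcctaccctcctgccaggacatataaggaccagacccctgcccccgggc
MUC1: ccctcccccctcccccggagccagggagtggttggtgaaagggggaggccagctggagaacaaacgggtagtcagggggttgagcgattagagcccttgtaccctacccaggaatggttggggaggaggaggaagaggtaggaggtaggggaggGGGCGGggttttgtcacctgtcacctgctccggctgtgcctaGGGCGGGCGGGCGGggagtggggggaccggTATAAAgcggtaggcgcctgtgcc
Capitals mark matches on either strand to the motifs searched. The GC box was searched as GGGCGG. The core of AP-1 sites was searched loosely as TGANTCA, where N is any base. The TATA box was searched as TATAAA and the CACCC box by its name. MUC1, shown from the first of its 2 listed starts, held 4 GC boxes, 3 of them overlapping, and 1 TATA box, and no match to the other 2 motifs. MUC2 held 1 match to TGANTCA, namely TGAATCA, which has an A at the open position. It also held 3 CACCC boxes, 2 of which overlap by their last and first letter. It had no exact match to GGGCGG or TATAAA. Among the 35116 promoter windows of the same length in the table, 42.6% held a match to GGGCGG, 6.57% to TGANTCA, 10.7% to TATAAA and 54.7% to CACCC. The GC content of the window was 66.0% for MUC1 and 59.6% for MUC2, with a median of 58.0% over all windows. A match is a string of letters and was not tested as a binding site.

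Levels of different genes were compared per kilobase of exons (union of GENCODE v44 exons) at T0. MUC1 was by far the most abundant, with a mean of 37.6 CPM per kb in BT474 and 122 CPM per kb in BT474R. In BT474 it was followed by MUC20 at 2.01 and MUC5B at 0.945 CPM per kb, then by MUC5AC at 0.142, MUC2 at 0.0261, MUC4 at 0.0197 and MUC16 at 0.0033. In BT474R MUC1 was followed by MUC5AC at 7.09 and MUC5B at 6.17 CPM per kb, whose libraries lay at 6.63 and 7.55 and at 5.72 and 6.61, so these neighbours in the order differed by little more than their spread. MUC20 was at 0.808, MUC2 at 0.294 and MUC4 at 0.00365 CPM per kb in BT474R. These per-kilobase values sum all rows of a gene, because the table repeats some names with a number added (MUC2_1, MUC5AC_1).

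The repeated rows matter for reading the secreted mucins. MUC2 had 3 rows, MUC5AC 2, MUC4 8 and MUC20 8, whereas MUC1, MUC5B, MUC13 and MUC16 had 1. The plain row held 29.8% of all MUC2 counts, 23.4% of MUC5AC, 40.2% of MUC4 and 42.1% of MUC20, and these shares were within 5 percentage points of each other between the lines. What the numbered rows stand for is not given in the sources used here, and reads shared by near-identical copies may have been split between them. All values below are those of the plain row unless they are named as sums over all rows. With the plain row alone MUC5AC would stand at 1.65 CPM per kb in BT474R at T0, below MUC5B. In BT474 at T0, the plain row of MUC20 would likewise stand at 0.843 CPM per kb, below MUC5B at 0.945.

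**Figure D1:**
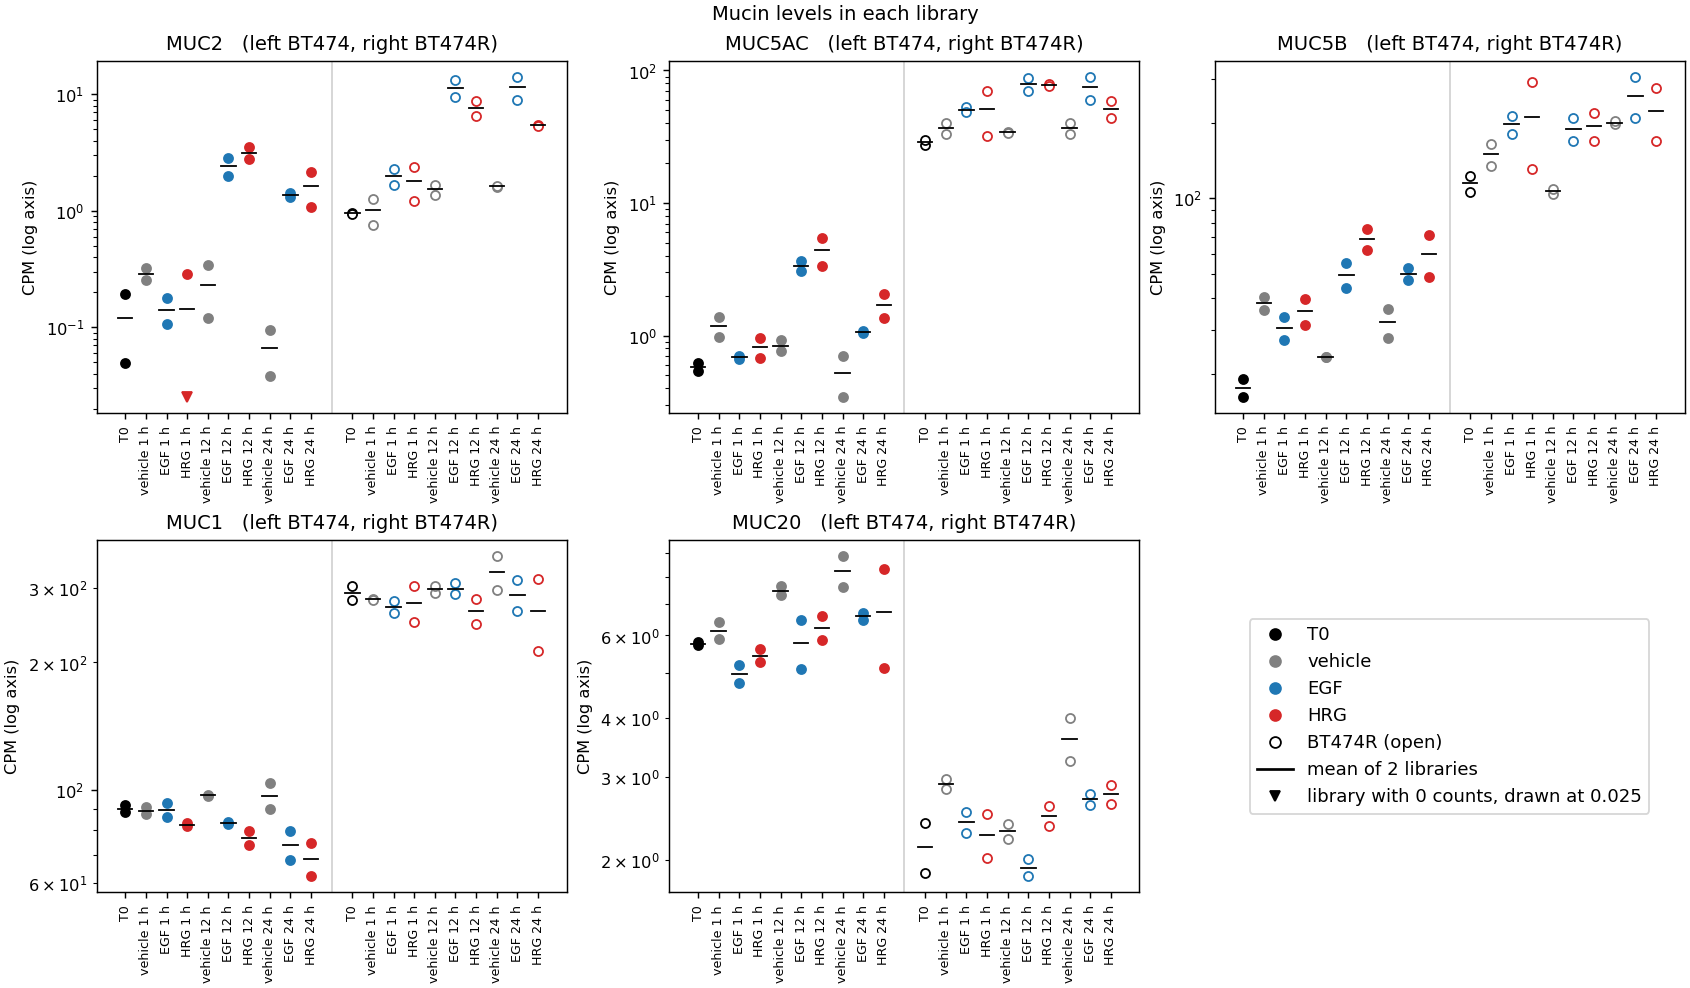
Level of MUC2, MUC5AC, MUC5B, MUC1 and MUC20 in each library, in CPM on a log axis, for BT474 (filled, left) and BT474R (open, right), with short lines for the mean of 2 libraries and a triangle for the library with 0 counts. The 3 secreted mucins and MUC1 lie higher in BT474R than in BT474 at T0, MUC20 lies lower, and MUC2 lies above vehicle at 12 h and 24 h with both ligands in both lines.

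MUC2 was the mucin with the largest change after ligand. At 12 h the vehicle libraries of BT474 had 0.345 and 0.120 CPM, from 10 and 3 counts, and the EGF libraries had 1.98 and 2.83 CPM. HRG gave 2.80 and 3.51 CPM at the same time. The groups did not overlap, and the log2 fold change over vehicle was 3.28 (SE 0.43) with EGF and 3.67 (SE 0.41) with HRG. In BT474R at 12 h the vehicle had 1.38 and 1.67 CPM, EGF 13.2 and 9.53 CPM and HRG 8.70 and 6.47 CPM. The log2 fold change there was 2.89 (SE 0.27) with EGF and 2.28 (SE 0.28) with HRG. These 12 h values were known beforehand and carry no test. They rest on few reads in BT474: without the first vehicle library the fitted log2 fold changes were 4.24 with EGF and 4.63 with HRG, and without the second they were 2.77 and 3.16.

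At 24 h, which the choice of genes did not use, MUC2 stayed higher with ligand in all 4 combinations of ligand and line. Its 12 h rise was known, so the 24 h result is not independent of that choice. In BT474 the vehicle was at the floor, with 2 and 1 counts, against 38 and 29 counts with EGF and 32 and 53 with HRG. The ratio of counts per library total was 20.8 with EGF (95% exact binomial interval 6.81 to 103) and 23.8 with HRG (7.88 to 118). Both passed the test (edgeR quasi-likelihood, Benjamini-Hochberg adjusted p = 4.1e-06 and 4.7e-07). The fitted log2 values of 4.33 and 4.52 depended on the vehicle libraries, and were 4.99 and 5.20 without the first of them. Summed over all 3 rows, with 14 counts in vehicle, the ratios were 13.7 (7.98 to 25.5) and 17.9 (10.5 to 33.1), and all these limits cover counting error alone.

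In BT474R at 24 h the MUC2 vehicle libraries had 1.61 and 1.65 CPM, close to each other. EGF gave 8.85 and 14.04 CPM, a log2 fold change of 2.81 (SE 0.27, adjusted p = 1.4e-07). HRG gave 5.49 and 5.35 CPM, a log2 fold change of 1.75 (SE 0.30, adjusted p = 0.0024). No ligand library overlapped with vehicle. The HRG call was lost when the fit held only the 4 libraries compared (adjusted p = 0.83), and without the first vehicle library (adjusted p = 0.060), with log2 fold changes of 1.72 in both fits.

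MUC2 was also the mucin in which the ligands themselves differed in BT474R at 24 h. HRG lay 1.06 (SE 0.23) below EGF on the log2 scale, with no overlap of libraries (adjusted p = 0.0057), where 5.18% of all genes were called. In BT474R no other member was called between the ligands, nor any at 1 h and 12 h, where 0.0494% and 1.42% of genes were called. The MUC2 values at 12 h were known beforehand, so its result at that time is not a test. Over all 3 rows the difference was -1.17 (adjusted p = 7.2e-04). Without the second EGF library it was -0.70 and not called (adjusted p = 0.22). In BT474 at 24 h, HRG minus EGF was 0.20 (SE 0.33, adjusted p = 0.91) and the libraries overlapped.

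MUC5AC was also higher with ligand at 12 h, with smaller log2 values than MUC2. In BT474 at 12 h the vehicle libraries had 0.759 and 0.919 CPM, EGF 3.08 and 3.65 CPM and HRG 3.37 and 5.42 CPM. EGF raised it by 1.99 on the log2 scale (SE 0.28, adjusted p = 9.1e-07) and HRG by 2.38 (SE 0.26, adjusted p = 1.8e-09), and no libraries overlapped. By 24 h the vehicle had 0.706 and 0.342 CPM, EGF 1.08 and 1.04 CPM and HRG 1.35 and 2.05 CPM. Only HRG passed the test at 24 h, at 1.69 (SE 0.35, adjusted p = 2.8e-04), while EGF had 1.06 (SE 0.39, adjusted p = 0.062). With both rows summed, EGF at 24 h passed as well, at 1.47 (adjusted p = 2.1e-05), and so did EGF without the first vehicle library, at 1.61 (adjusted p = 0.030).

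In BT474R, MUC5AC was far higher from the start. At 12 h the vehicle had 34.1 and 33.9 CPM, EGF 88.3 and 70.6 CPM and HRG 78.5 and 76.9 CPM, a rise of 1.22 (SE 0.23, adjusted p = 8.0e-04) and 1.17 (SE 0.23, adjusted p = 0.0032). At 24 h EGF gave 59.8 and 89.1 CPM over vehicle at 40.2 and 33.4 CPM, a rise of 1.01 (SE 0.23, adjusted p = 0.0033), which without the second EGF library was 0.71 and not called (adjusted p = 0.10). HRG gave 44.02 and 58.6 CPM at 24 h, a difference of 0.49 (SE 0.24, adjusted p = 0.35) that did not pass although no library overlapped.

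MUC5B, the secreted mucin with the highest plain-row level per kilobase at T0 in both lines, had the smallest log2 values of the 3 at 12 h and 24 h. In BT474 at 12 h the vehicle libraries had 23.4 and 23.3 CPM, EGF 44.1 and 55.4 CPM and HRG 62.4 and 75.4 CPM. EGF raised it by 1.07 (SE 0.14, adjusted p = 1.3e-07) and HRG by 1.53 (SE 0.13, adjusted p = 4.1e-12). At 24 h the vehicle itself was higher, at 27.8 and 36.4 CPM, with EGF at 47.4 and 52.7 CPM and HRG at 48.6 and 71.3 CPM. The groups did not overlap, and the rise was 0.62 (SE 0.13, adjusted p = 5.4e-04) and 0.86 (SE 0.13, adjusted p = 1.6e-06). The HRG effect of MUC5B in BT474 was smaller at 24 h than at 12 h by 0.68 (SE 0.18, adjusted p = 0.033), where 2.50% of all genes were called. HRG exceeded EGF at 12 h by 0.46 (SE 0.12, adjusted p = 0.031), where 2.17% were called. Of 42 such tests of HRG against EGF over the members, 2 were called, and none in BT474 at 1 h or 24 h, where 0.139% and 0.768% of genes were called. These 42 include MUC2 at 12 h in both lines and MUC1 at 12 h in BT474. Their values were known beforehand and count only as a description, and neither gene was called there. Of 22 tests of the 24 h against the 12 h effect 1 was called, and in the other 3 combinations of ligand and line 0.517%, 0.185% and 0.0288% of genes were called. Both of these calls were lost with DESeq2 (adjusted p = 0.34 and 0.31) and, for the second, without the second HRG library (0.30, adjusted p = 0.60) or the first EGF library (0.30, adjusted p = 0.60). The time difference was lost without either 12 h vehicle library (-0.67 and -0.68), the second HRG 12 h library (-0.52), the second 24 h vehicle library (-0.46) or the first HRG 24 h library (-0.43).

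In BT474R, MUC5B at 12 h had 104 and 109 CPM in vehicle, 210 and 169 CPM with EGF and 169 and 220 CPM with HRG. EGF lay 0.83 above vehicle (SE 0.25, adjusted p = 0.035) and HRG 0.85 above it (SE 0.25, adjusted p = 0.064), so that only the first passed. The HRG value passed when both lines shared 1 fit (0.86, adjusted p = 0.011) and when only its 4 libraries were fitted (adjusted p = 0.038). The EGF call was lost with DESeq2 (adjusted p = 0.083) and without any 1 of the 4 libraries, with adjusted p between 0.058 and 0.27. At 24 h the vehicle had risen to 197 and 203 CPM, and EGF at 208 and 304 CPM and HRG at 169 and 275 CPM gave differences of 0.35 (SE 0.25, adjusted p = 0.39) and 0.16 (SE 0.25, adjusted p = 0.84).

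**Figure D2:**
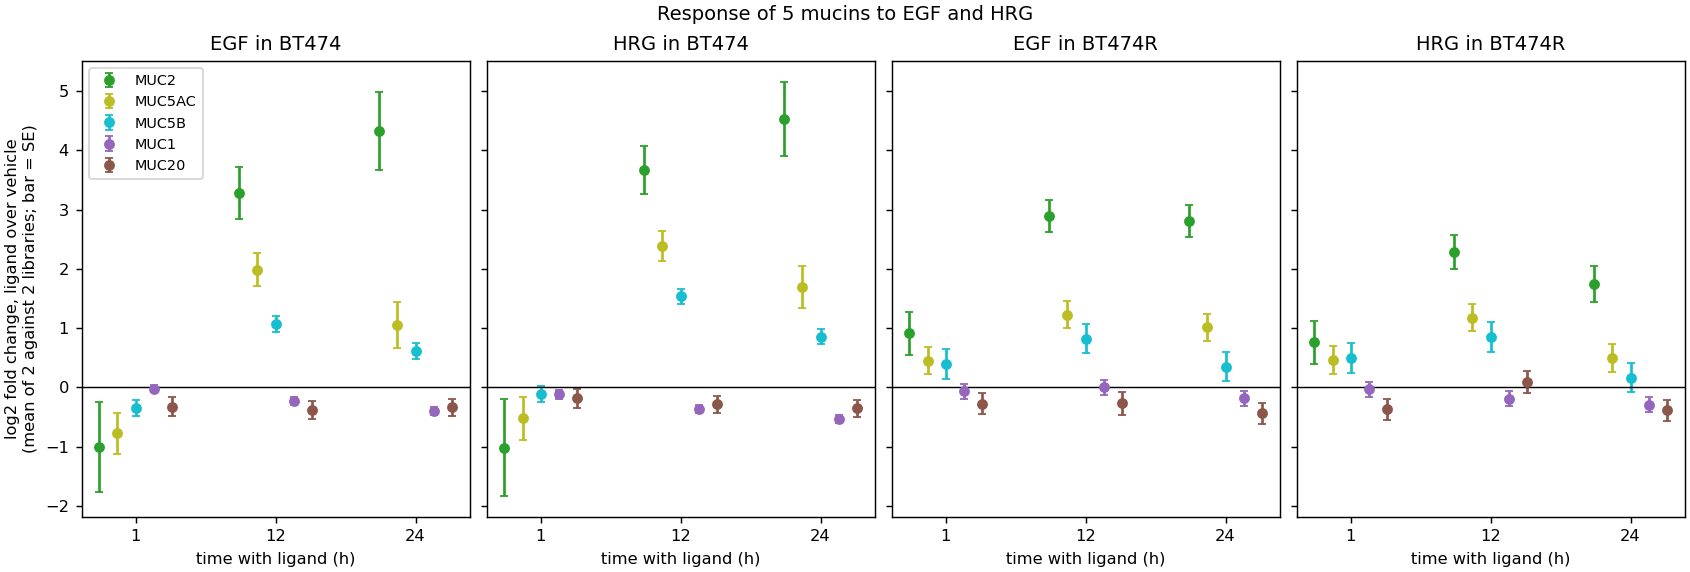
Log2 fold change of ligand over the vehicle of the same time for 5 mucins at the 3 time points, with bars for the SE of the fit (2 against 2 libraries). MUC2, MUC5AC and MUC5B are above 0 at 12 h and 24 h in each panel, with MUC2 the highest, whereas MUC1 and MUC20 lie between -0.53 and 0.09.

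MUC1 mRNA was lower after ligand in BT474, by a small amount. At 12 h the vehicle libraries had 96.7 and 97.2 CPM, EGF 83.9 and 82.9 CPM and HRG 79.7 and 74.0 CPM, a log2 difference of -0.23 (SE 0.07) and -0.37 (SE 0.07) that is given without a test. At 24 h the vehicle had 89.8 and 103 CPM, EGF 68.2 and 79.6 CPM and HRG 62.2 and 74.7 CPM. EGF lowered MUC1, which fell by 0.40 (SE 0.07, adjusted p = 2.2e-05), and under HRG it fell by 0.53 (SE 0.07, adjusted p = 8.4e-08), with no overlap of libraries. In BT474R the 24 h vehicle had 298 and 357 CPM, EGF 265 and 314 CPM and HRG 213 and 316 CPM. The groups overlapped, and the differences of -0.18 (SE 0.13, adjusted p = 0.38) and -0.29 (SE 0.13, adjusted p = 0.27) did not pass. Without the second HRG library the latter was -0.61 and called (adjusted p = 0.0023). The 24 h difference between the lines in the MUC1 response was 0.22 (SE 0.16, adjusted p = 0.62) for EGF and 0.20 (SE 0.16, adjusted p = 0.64) for HRG, so a difference between the lines was not shown. Without the first HRG library of BT474R the HRG value was 0.47 and called (adjusted p = 0.023).

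MUC20 ranged from 4.76 to 8.84 CPM in BT474 and from 1.85 to 3.997 CPM in BT474R. Of its 12 comparisons of ligand with vehicle, 11 had a negative log2 value, between -0.18 and -0.44, and the other was 0.09. None passed the edgeR test or DESeq2, and 7 had an unadjusted p under 0.05. Summed over its 8 rows, MUC20 passed in EGF-BT474R at 24 h (-0.43, adjusted p = 0.022), and without the second HRG library it passed in HRG-BT474 at 24 h (-0.71, adjusted p = 4.2e-04). MUC20 of the vehicle group rose from T0 to 24 h by 0.52 (SE 0.15, adjusted p = 0.016) in BT474 and by 0.79 (SE 0.19, adjusted p = 0.0064) in BT474R. The first of these calls was kept only without the first 24 h vehicle library among its 4 libraries, with values of 0.42 to 0.63, and the second was lost without the second T0 library (0.62) or the first 24 h vehicle library (0.63).

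MUC4, MUC16 and MUC13 were at or near the floor. MUC4 had 132 counts over the 40 libraries and at most 11 in any of them, with 2 of 10 groups at the floor in BT474 and 8 of 10 in BT474R. MUC16 had 94 counts in all and at most 12 in a library, with 5 of 10 groups at the floor in BT474 and all 10 in BT474R. MUC13 had 1 count in 1 BT474R library of the 24 h vehicle and 0 in the other 39 libraries, and did not pass the filter of at least 1 count in 50% of the libraries of a fit. A count of 0 allows up to 3 counts, or at most 0.179 CPM in the smallest library. No change of MUC4 or MUC16 with ligand was detectable in the plain rows at this depth. Summed over its 8 rows, MUC4 in BT474 at 24 h had 19 and 23 counts in vehicle and 10 and 6 with EGF, a log2 difference of -1.43 that passed (adjusted p = 0.023).

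The calls were also counted for the secreted and for the membrane mucins, and a difference between the classes was not tested. MUC13 was not tested in any comparison, and MUC4 and MUC16 were at the floor in 2 and 5 of the 10 groups of BT474 and in 8 and 10 of those of BT474R. No member was called at 1 h, where 2.19% of all genes were called with EGF and 2.77% with HRG in BT474, and 0.457% and 0.169% in BT474R. Of the 28 tests at 1 h, 5 had an unadjusted p under 0.05 and DESeq2 called 0. At 12 h, MUC5AC and MUC5B, the 2 secreted mucins tested, were both called higher in EGF-BT474, HRG-BT474 and EGF-BT474R, and MUC5AC alone in HRG-BT474R. Of all genes, 9.04%, 13.3%, 6.85% and 2.38% were called higher in these 4 comparisons. MUC1 in BT474 at 12 h, lower with both ligands, is left out of this count because its values were known beforehand. None of the other membrane mucins tested at 12 h was called, where 16.0%, 25.8%, 12.0% and 4.12% of all genes were called in either direction. Of the endothelial markers, 4 were tested. In order of the same comparisons, 0, 1, 2 and 1 of them were called higher at 12 h, with a median log2 difference of 0.27, 0.65, 1.25 and 1.20, and 1, 1, 3 and 1 at 24 h, with 1.39, 1.30, 2.69 and 1.23. CDH5, the cadherin of endothelial junctions, was among the markers called in each comparison that had a call. The part of these markers in the mucin results was not tested.

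At 24 h, 2 of 3 secreted mucins were called higher in EGF-BT474 and all 3 in HRG-BT474, against 9.71% and 12.5% of all genes called higher. MUC1 was called lower in each, against 6.65% and 11.6% of all genes, and 16.4% and 24.1% were called in either direction. In EGF-BT474R 2 of 3 secreted mucins were called higher and in HRG-BT474R 1 of 3, against 9.95% and 1.89% of all genes called higher. MUC2 was among the secreted mucins called in each of these comparisons, and in HRG-BT474R it was the only one. MUC2, and MUC1 in BT474, were listed with their 12 h response known. Their 24 h calls are therefore not a fair draw against the share of all genes. No membrane mucin was called with ligand in BT474R, where 17.3% and 2.78% of all genes were called in either direction at 24 h. In these 24 tests 4 had an unadjusted p under 0.05 and DESeq2 called 0. The median log2 fold change of the 3 secreted mucins at 24 h was 1.06 in EGF-BT474, 1.69 in HRG-BT474, 1.01 in EGF-BT474R and 0.49 in HRG-BT474R, and the median of all genes lay between -0.023 and 0.01. EGF and HRG were compared with the same vehicle libraries, so the 2 columns of values are not independent.

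Whether the ligand response itself differed between BT474R and BT474 was tested as an interaction. Of 38 such tests over the members, edgeR called 0 with the plain rows, 5 had an unadjusted p under 0.05 and DESeq2 called 1, where 0.138%, 1.96% and 4.01% of all genes were called for EGF in order of time and 0.544%, 4.07% and 3.33% for HRG. The HRG response of MUC2 at 24 h was 2.81 lower in BT474R on the log2 scale (SE 0.96, adjusted p = 0.11). Summed over its 3 rows the difference was -2.48 and passed (adjusted p = 0.0099), as it did with DESeq2 on the plain row (-2.91, adjusted p = 0.048). For MUC5AC the HRG response at 12 h differed by -1.23 (SE 0.57, adjusted p = 0.28), and by -1.53 with both rows summed, which passed (adjusted p = 0.030). The EGF responses differed by -1.52 for MUC2 at 24 h (SE 1.04, adjusted p = 0.57) and by -0.78 for MUC5AC at 12 h (SE 0.60, adjusted p = 0.72).

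**Figure D3:**
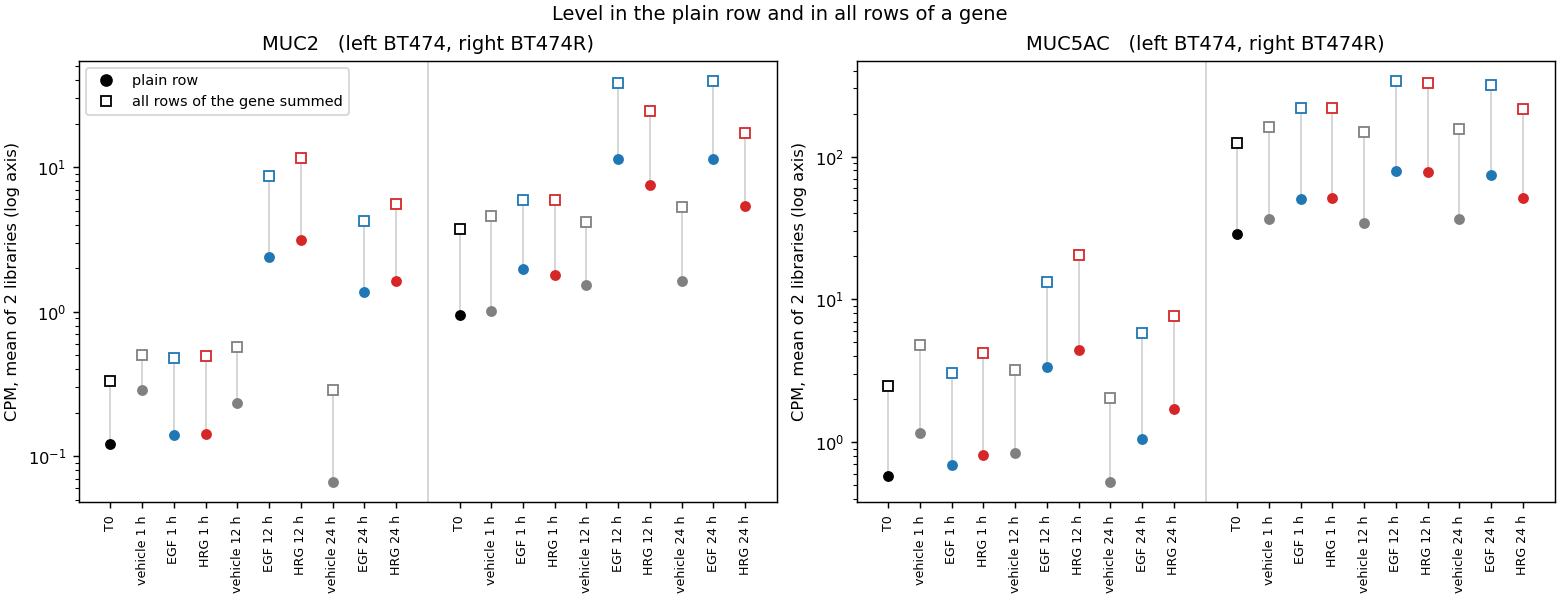
Mean level of MUC2 and MUC5AC in each group of 2 libraries, in CPM on a log axis, in the plain row (filled circles) and summed over all rows of the gene (open squares), with BT474 at left and BT474R at right in each panel. Both measures give the same order of vehicle and ligand at 12 h and 24 h, and the sums lie several times above the plain row.

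The lines differed before any ligand was added, most of all in MUC5AC. MUC5AC at T0 had 0.619 and 0.538 CPM in BT474 and 27.4 and 30.0 CPM in BT474R, a 49.0-fold difference (log2 5.61, SE 0.41, adjusted p = 2.6e-14). In vehicle the log2 difference was 4.98 at 1 h, 5.34 at 12 h and 6.18 at 24 h, each called. MUC5B at T0 had 19.0 and 16.1 CPM in BT474 and 106 and 123 CPM in BT474R, 6.50-fold higher (log2 2.70, SE 0.27, adjusted p = 1.1e-10), with 1.97, 2.19 and 2.63 in the successive vehicle groups. The libraries of the lines did not overlap in any of these groups.

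MUC2 at T0 had 0.193 and 0.0489 CPM in BT474, from 5 and 1 counts, and 0.960 and 0.936 CPM in BT474R, a log2 difference of 2.82 (SE 0.77, adjusted p = 0.0023). At 24 h in vehicle the ratio of BT474R to BT474 was 24.0 by counts (95% exact binomial interval 7.91 to 119) and 16.8 (9.80 to 31.1) over all 3 rows, with intervals that cover counting error only. The MUC2 difference at 1 h of 1.86 (adjusted p = 0.0081) was lost without the second vehicle library of BT474 (1.67, adjusted p = 0.075) or of BT474R (1.37, adjusted p = 0.15). At T0 the fitted difference ran from 2.24 to 4.11 when each library was left out, the highest without the first BT474 library and the call kept in each case. Leaving out the first BT474 vehicle library moved the fitted difference from 2.65 to 3.62 at 12 h and from 4.58 to 5.23 at 24 h.

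The membrane mucins split between the lines. MUC1 at T0 had 91.7 and 88.6 CPM in BT474 and 303 and 281 CPM in BT474R, 3.24-fold higher (log2 1.69, SE 0.12, adjusted p = 3.8e-15), and 1.67, 1.62 and 1.76 higher in the vehicle groups in order of time. MUC20 at T0 had 5.80 and 5.72 CPM in BT474 and 2.40 and 1.87 CPM in BT474R, a log2 difference of -1.45 (SE 0.20, adjusted p = 1.0e-07), with -1.08, -1.69 and -1.18 in vehicle. MUC4 and MUC16 had fewer counts in BT474R. Over all 20 libraries of each line, which pools its 10 groups, the plain rows held 93 and 39 counts of MUC4, a BT474 to BT474R ratio of 2.53 (95% exact binomial interval 1.72 to 3.78), and 73 and 21 counts of MUC16, a ratio of 3.69 (2.25 to 6.31). These intervals cover counting error only. In vehicle at 24 h, MUC16 had 1 and 2 counts in BT474 and 1 and 3 in BT474R.

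Counted by comparison, 6 of 7 members tested were called between the lines at T0 (4 higher in BT474R, MUC20 and MUC16 lower), 6 of 7 in vehicle at 1 h, 6 at 12 h and 5 at 24 h. Of all genes, 46.9%, 50.2%, 49.0% and 49.3% were called in the same comparisons, so the members were read against a background in which a call between the lines was common. MUC2 and MUC1 are among the calls at 12 h. Both line differences rest on values that were known when the genes were chosen, so they count there only as a description. The MUC16 calls at T0 (adjusted p = 0.047) and 1 h (adjusted p = 0.0055) and the MUC4 call at 12 h (adjusted p = 0.031) rest on 0 to 10 counts per library. They were lost without 3 of the 4 libraries at T0 for MUC16 (both BT474R libraries and the first of BT474), without the second BT474R library at 1 h, and for MUC4 without the second library of either line.

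**Figure D4:**
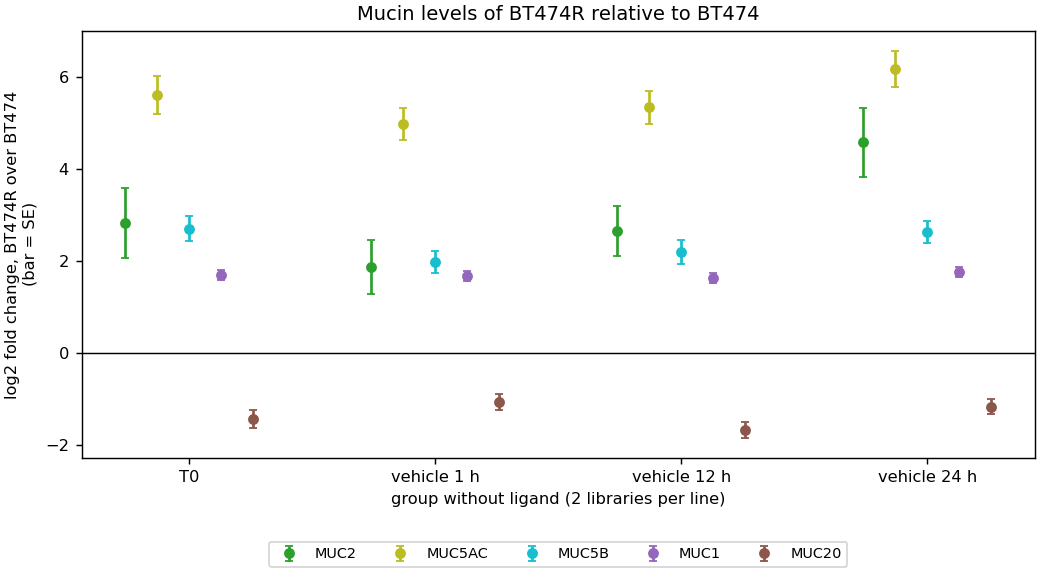
Log2 fold change of BT474R over BT474 for 5 mucins at T0 and in the 3 vehicle groups, with bars for the SE (2 libraries per line and group). MUC5AC lies between 4.98 and 6.18, MUC1 near 1.7, and MUC20 between -1.69 and -1.08.

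The vehicle groups moved too. MUC5B in BT474 rose from T0 to 40.6 and 35.9 CPM after 1 h in fresh starvation medium with vehicle, by 1.12 (SE 0.15, adjusted p = 9.0e-07), where 6.61% of all genes were called. It was 0.87 above T0 at 24 h (SE 0.15, adjusted p = 4.8e-05), where 11.4% were called, and 0.40 above at 12 h (adjusted p = 0.14), where 6.41% were. In BT474R the 24 h vehicle was 0.81 above T0 (SE 0.25, adjusted p = 0.037), where 13.7% of genes were called, and this call was lost without any 1 of its 4 libraries. No member was called at 1 h or 12 h in vehicle of BT474R, where 2.24% and 1.13% of genes were called. MUC2 at 12 h is among these and carries no test, because its values were known beforehand. The second HRG library of BT474R at 1 h had 70.0 CPM of MUC5AC and 289 CPM of MUC5B against 31.8 and 131 CPM in the first, the widest spread within a group for these genes.

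The mucins were also set beside genes that build their sugars or act in secretory cells. These lists too were chosen with earlier results of these data known. Their counts beside the share of all genes are therefore a description. Polypeptide GalNAc transferases place the first sugar of an O-glycan. Of 18 such genes, 16 were tested in BT474 and 15 in BT474R, and 5 were called higher and 0 lower in EGF-BT474 at 12 h, 6 and 2 in HRG-BT474, 5 and 1 in EGF-BT474R and 4 and 0 in HRG-BT474R. Of all genes, 16.0%, 25.8%, 12.0% and 4.12% were called in either direction in these 4 comparisons. At 24 h the numbers were 6 and 1, 6 and 2, 4 and 2, and 2 and 0, where 16.4%, 24.1%, 17.3% and 2.78% of all genes were called. These all-gene shares also stand behind the counts of the next lists. GALNT14 passed in all 8 comparisons at 12 h and 24 h, at 0.52 to 1.06, from a vehicle mean of 1.10 CPM at 12 h in BT474 and 15.7 CPM in BT474R. GALNT6 passed in all 8 as well, at 0.28 to 0.78, and GALNT10 in 7 of them, at 0.39 to 0.65, with 0.17 (adjusted p = 0.078) in HRG-BT474R at 24 h.

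A second list held enzymes that extend or cap the O-glycan core. Of 13 genes, 11 were tested in BT474 and 10 in BT474R, and between 0 and 4 were called higher and at most 1 lower in a comparison at 12 h or 24 h. At 24 h in BT474, 2 of 11 were called with EGF and 2 of 11 with HRG, beside 16.4% and 24.1% of all genes. ST3GAL1, which caps the core 1 glycan with sialic acid, rose in 7 of the 8, from 268 to 434 CPM in EGF-BT474 and to 453 CPM in HRG-BT474 at 12 h, and by 1.00 (SE 0.05, adjusted p = 1.9e-18) in HRG-BT474 at 24 h. In HRG-BT474R at 24 h it had 0.09 (adjusted p = 0.71). GCNT1, which starts the core 2 branch, was called at 1 h in BT474, at 0.39 with EGF and 0.44 with HRG.

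Of 28 genes of the secretory cell programme, 21 were tested in BT474 and 22 in BT474R. They were called higher and lower in similar numbers after HRG in BT474, 4 and 4 at 12 h and 6 and 4 at 24 h. EGF gave 7 and 1 at 12 h and 5 and 1 at 24 h in BT474, and 6 and 2 and 6 and 3 in BT474R. HRG in BT474R gave 2 and 0 at both times. The share of all genes called in either direction was 25.8% and 24.1% for HRG in BT474, 16.0% and 16.4% for EGF in BT474, 12.0% and 17.3% for EGF in BT474R and 4.12% and 2.78% for HRG in BT474R, at 12 h and 24 h. AGR2, a disulfide isomerase of the endoplasmic reticulum that takes part in mucin folding, rose in all 8, from 334 to 549 CPM in EGF-BT474 at 12 h (0.70, SE 0.04) and from 182 to 360 CPM in EGF-BT474R at 24 h (0.98, SE 0.07). TFF1, a trefoil peptide co-secreted with MUC5AC in the stomach, rose in EGF-BT474R at 24 h by 0.71 (SE 0.10), and UNC13D, which primes secretory granules for release, rose at 12 h in BT474R, by 0.78 under EGF and 0.64 under HRG. TFF3, another trefoil peptide, went the other way in HRG-BT474 at 24 h, from 99.0 to 80.0 CPM (-0.33, SE 0.05). FCGBP, a mucus protein that is also represented by 1 numbered row, fell by 1.13 in EGF-BT474R at 24 h (SE 0.24) and by 0.71 in HRG-BT474 at 12 h (SE 0.22).

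Among 15 other mucin genes, 7 were tested in each line. MUC19, another gel-forming mucin, moved against MUC2: in BT474 it fell at 12 h from 13.9 CPM to 6.54 CPM with EGF and 3.91 CPM with HRG, and at 24 h from 11.7 to 4.34 and 2.07 CPM. These are log2 values of -1.10, -1.84, -1.46 and -2.57, each called, and MUC19 was already called lower at 1 h, by 0.65 under EGF and 0.56 under HRG. In BT474R its vehicle mean was 0.52 CPM at 12 h and 0.61 CPM at 24 h, and EGF at 24 h was called lower (-1.83, adjusted p = 0.021), a value named after it was seen because its level was under the 1 CPM asked of other named genes. MUC6, a gastric gland mucin with 3 numbered rows, fell by 0.52 with EGF in BT474 at 1 h and rose with HRG in BT474 by 0.33 at 12 h and 0.45 at 24 h and in BT474R by 0.63 at 12 h. MUCL1, a small breast mucin, rose by 0.21 with EGF and 0.16 with HRG in BT474 at 24 h.

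Of 11 partners and sheddases of membrane mucins, all were tested in both lines. EGF called 3 higher and 1 lower at 12 h in BT474 and HRG 4 and 4, and at 24 h each ligand called 0 higher and 3 lower. Beside these, 16.0% and 25.8% of all genes were called at 12 h and 16.4% and 24.1% at 24 h. ERBB3, the HRG receptor that pairs with HER2, fell with HRG by 0.39 at 12 h and 0.27 at 24 h in BT474. It was called lower with EGF as well, with log2 values of -0.18 at 12 h and -0.12 at 24 h. In BT474R no partner was called after HRG at 12 h or 24 h. EGF called ADAM10, a sheddase, at 12 h (0.15) and ADAM10 and ADAM17 at 24 h (0.22 and 0.21). At T0, EGFR had 66.5 CPM in BT474 and 679 CPM in BT474R, a log2 difference of 3.35 (SE 0.10, adjusted p = 5.4e-26). Of the 11 partners, 10 were called higher and 1 lower in BT474R at T0, where 46.9% of all genes were called. The part of EGFR in the mucin results was not tested.

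**Figure D5:**
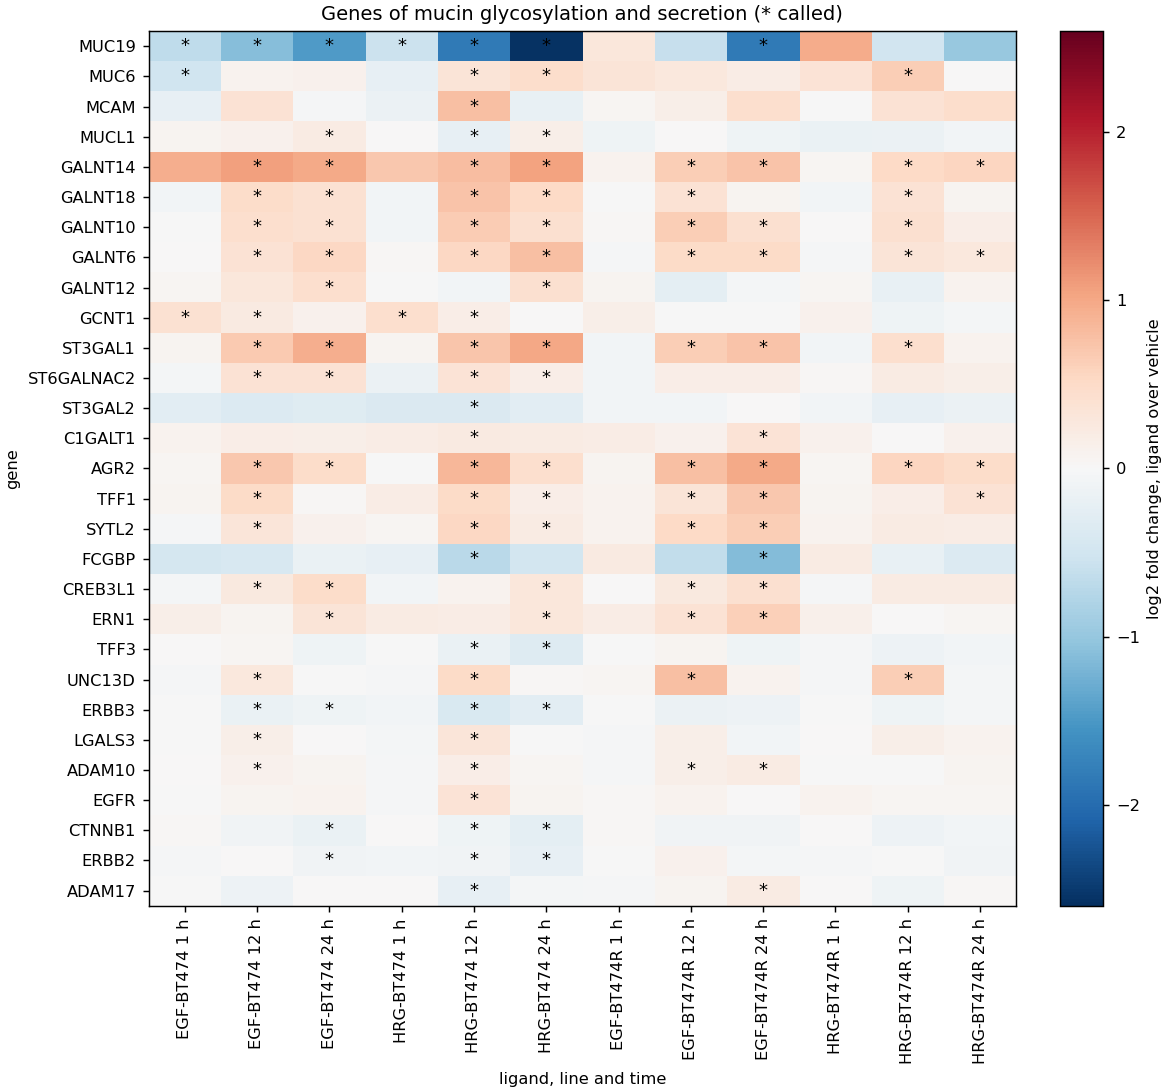
Log2 fold change of ligand over vehicle (colour, blue lower and red higher) for 29 genes from 5 lists in 12 comparisons, with stars where the adjusted p was under 0.05. GALNT14, GALNT6, ST3GAL1 and AGR2 are red in most columns at 12 h and 24 h, and MUC19 is blue in all 6 BT474 columns.

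Over the 20 group means, the genes whose log2 level ran most nearly in parallel with MUC2 were LRP8 (Pearson r = 0.967), ETV1 (0.966), ESYT2 (0.960), MBNL2 (0.959) and CORO1A (0.959), out of 13327 genes ranked. Within each line their r with MUC2 was at least 0.924. For MUC5AC the closest were KCTD12 (0.994), B4GALNT2 (0.993) and RHOA (0.992), for MUC5B SPRY1, PDE4D (both 0.975) and EPAS1 (0.974), for MUC1 VASH1 (0.996), ALOX15B and TFF3 (both 0.995), and for MUC20 LINC00674 (0.981), GDF5 (0.977) and SIAE (0.971). For these last 4 mucins the line difference sets most of the spread: within BT474R the r of ALOX15B with MUC1 was 0.370, and within BT474 that of SIAE with MUC20 was 0.452. The points share libraries, line and time, so these are descriptions of likeness only.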

How the data were processed

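Messenger RNA was sequenced in 40 libraries of BT474 and BT474R. The deposited table holds raw read counts per gene name, which the authors made with Trim Galore 0.6.6, Rsubread and featureCounts on GRCh38.p13. Its annotation, how strand was used and how reads with several matches were counted are not given in the sources used here. The table also repeats 5078 names with a number added. Samples were grouped by line, ligand and time from the labels. The members and gene lists were chosen with earlier results of these data known.

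Genes with at least 1 count in 50% of the libraries of a fit were kept. Counts were normalised by TMM and tested with edgeR 4.0.16 (R 4.3.3), quasi-likelihood F test, in 1 fit per line (20 libraries, 25146 genes in BT474 and 24287 in BT474R), and in 1 fit of 40 libraries (24641 genes) for differences between the lines. The threshold was a Benjamini-Hochberg adjusted p of 0.05 over all genes of a fit. The SE is the log2 fold change over the square root of F. The fits were tested on simulated data. Genes changed by 0.5 on the log2 scale were called in 65.7% for EGF-BT474 at 24 h and 64.2% for EGF-BT474R at 24 h. For the interaction of line and EGF at 24 h it was 43.3%. At a change of 1 these were 94%, 86.6% and 86.6%. Only genes with a mean of at least 1 CPM were changed, so recovery at the level of MUC4 and MUC16 was not measured.

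All 8 members were named. From each other list, up to 3 genes per ligand comparison were named, those with the largest log2 fold change among genes past the threshold, at a mean of at least 1 CPM and with no overlap of libraries. Likeness was Pearson's r over 20 group means of log2 CPM. Promoter motifs were chosen after the values had been seen. Alternatives were DESeq2 1.42.0, DESeq2 size factors in edgeR, 2 other low count filters, 2 other choices of libraries in the fit, a replicate block, numbered rows summed, and leaving out each library. Over 45 pairs of groups in each line, the deviations of same-numbered libraries correlated at -0.138 to 0.391 in BT474 and -0.342 to 0.513 in BT474R, over 0.1 in 12 and 17 pairs. Since not every pair was over 0.1, the numbers were not used as pairs.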

Additional observations from a re-analysis of the deposited data

Results flagged for a closer look

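The HRG effect on MUC5B in BT474 differed between 24 h and 12 h by -0.68 on the log2 scale in a direct test (edgeR adjusted p = 0.033). This call was not stable, as only 4 of 7 alternatives kept it. Leaving out each library in turn gave values from -0.96 to -0.43.

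In BT474, the ligand effects listed here had libraries on 1 side of vehicle at 1 h and on the other side at 12 h and 24 h, without overlap. The differences between 1 h and the later times were not tested. How many of all genes have this pattern was not counted, so it is not shown to be particular to the mucins. With 2 libraries per group, a lack of overlap is weak evidence. The MUC2 value at 12 h was known beforehand. MUC2 with EGF had log2 values of -1.01 at 1 h, 3.28 at 12 h and 4.33 at 24 h. MUC5AC had -0.77, 1.99 and 1.06 with EGF, and -0.52, 2.38 and 1.69 with HRG. MUC5B with EGF had -0.35, 1.07 and 0.62. None of the 1 h values passed the edgeR test on its own, and MUC2 at 1 h rests on 3 to 7 counts per library.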

How the results depend on the processing

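All 48 called results over the members kept their sign under every alternative run. They include the line differences of MUC2 and MUC1 in vehicle at 12 h, which rest on values known beforehand. These also enter the 23 calls between the lines counted next. The number of member calls was 5 in EGF-BT474, 6 in HRG-BT474, 4 in EGF-BT474R, 2 in HRG-BT474R, 2 for HRG against EGF, 5 for vehicle against T0, 1 for 24 h against 12 h, 23 between the lines and 0 for the interaction of line and ligand. Without the low count filter these were 9 in EGF-BT474R, 7 in HRG-BT474R, 6 for HRG against EGF, 10 for vehicle against T0, 5 for 24 h against 12 h and 8 for the interaction. The number of calls over all genes rose as well in each comparison of these families, but so did the number of genes tested. In EGF-BT474R, 226, 3307 and 4526 of 32768 genes were called without the filter, in order of time. With the filter these were 111, 2910 and 4208 of 24287. The share of genes called in EGF-BT474R at 12 h and 24 h was thus lower without the filter, while the member calls rose. DESeq2, filterByExpr and 1 fit of both lines each gave 1 for HRG against EGF and 0 for 24 h against 12 h. The cause of these shifts was not tested. The interaction had 1 call with DESeq2 and 2 with numbered rows summed. Leaving out each library in turn gave 1 to 3 calls for HRG against EGF, 0 to 1 for 24 h against 12 h, 1 to 3 in HRG-BT474R (1 without the first 24 h vehicle library) and 3 to 5 for vehicle against T0 (3 without the second T0 or the first 24 h vehicle library of BT474R). The interaction had 0 to 1, with MUC5B called without the second HRG library of BT474R at 24 h (-1.10, adjusted p = 0.035) and MUC1 without the first.

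In 1 fit of both lines, 3 calls in BT474 at 24 h were lost: MUC5AC with HRG (adjusted p = 0.090), MUC5B with EGF (adjusted p = 0.11) and MUC5B in vehicle against T0 (adjusted p = 0.058). The cause was not tested.

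With the replicate number as a block, the calls were 7 in EGF-BT474, 6 in HRG-BT474, 3 in HRG-BT474R and 6 for vehicle against T0. Over all genes, calls also rose in each comparison of these families. The block made calls of MUC5AC in EGF-BT474 at 24 h (1.08, adjusted p = 0.040) and of MUC5B in HRG-BT474R at 12 h (0.84, adjusted p = 0.020), in EGF-BT474 at 1 h (-0.35, adjusted p = 0.038) and in BT474 vehicle at 12 h against T0 (0.39, adjusted p = 0.027). Depth limited MUC2 in BT474, MUC4, MUC13 and MUC16, where a count of 0 allows up to 0.179 CPM.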
